A study of Mus musculus with 15 samples.

Results

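Collagen genes were read out of a 3′ RNA sequencing experiment on mouse skin. They were taken as every row of the count table whose symbol reads Col, a number, the letter a and a number, with at least 10 counts summed over the 15 libraries, which gave 40 genes of the 55487 in the table. The symbols of 4 further genes fit the pattern but had fewer counts, namely *Col10a1* with 5, *Col2a1* with 4, *Col9a1* with 1 and *Col6a4* with 0. The 40 genes were divided by the structure their chains build into 10 fibrillar, 10 basement membrane and 20 other collagens. All 40 symbols were also found in the GENCODE vM21 annotation of GRCm38, from which the coordinates below were taken.

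Skin of 3-week-old mice of strain C57BL/6 was compared in 3 groups of 5 libraries. WT mice were littermates that carried *loxP*-flanked alleles and no Cre, and OTULIN-KO mice were *Otulin* fl/fl animals with Cre under the keratin 14 promoter, which is active in keratinocytes. OTULIN is a deubiquitinase that removes linear ubiquitin chains. The OTULIN-KO libraries were labelled by the appearance of the sampled skin as non-lesional or lesional, and whether both kinds were sampled from the same animals is not given in the sources used here. The study describes the libraries of a group as profiles of different mice, whereas the labels name no animal. Replicates are numbered across the groups, so that numbers 1 to 3, 4 to 6 and so on hold 1 library of each group, but no source says that such a set shares a litter, a mouse or a day.

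Collagens are trimers of chains in which glycine occupies the first place of each triplet of residues, since only glycine is small enough for the centre of the triple helix. In dermis, fibroblasts secrete types I, III and V, which assemble into the fibrils that give skin its tensile strength, whereas types IV, VII and XVII belong to the sheet beneath the epidermis and its anchors. Chains are hydroxylated in the endoplasmic reticulum, trimmed by proteases outside the cell and cross-linked by lysyl oxidases.

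The repeat is visible in the coding sequences of the 3 most abundant members, *Col1a1*, *Col1a2* and *Col3a1*, shown here for the first 10 triplets of the longest uninterrupted stretch, and breaks off in *Col4a1*, shown for contrast. Capitals mark the first 2 bases of each glycine codon that opens a triplet, and each sequence runs 5′ to 3′ on the strand of its gene in 90 bases spliced from the exons named.
Col1a1 (chr11:94939451-94939939, plus strand, exons 6 to 8): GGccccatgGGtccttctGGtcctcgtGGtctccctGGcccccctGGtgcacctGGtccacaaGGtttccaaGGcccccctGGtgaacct
Col1a2 (chr6:4512406-4515516, plus strand, exons 6 to 8): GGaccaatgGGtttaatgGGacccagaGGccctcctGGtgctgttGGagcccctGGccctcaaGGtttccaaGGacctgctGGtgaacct
Col3a1 (chr1:45323762-45325413, plus strand, exons 5 to 6): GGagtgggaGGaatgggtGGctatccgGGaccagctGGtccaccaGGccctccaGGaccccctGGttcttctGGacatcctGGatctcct
Col4a1 (chr8:11244507-11245084, minus strand, exons 8 to 9): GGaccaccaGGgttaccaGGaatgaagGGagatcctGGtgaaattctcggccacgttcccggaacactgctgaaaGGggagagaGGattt
In the vM21 transcripts the longest stretch held 338 triplets in *Col1a1*, 339 in *Col1a2* and 344 in *Col3a1*. Over the fibrillar members it ran from 216 to 344 triplets with a median of 338, and no fibrillar member had more than 3 stretches of at least 5 triplets. Basement membrane members were interrupted far more often, with 11 to 27 such stretches and a longest one of 30 to 75 triplets, and *Col4a1* had 22 stretches of which the longest held 40. The other members ranged from 23 to 113 triplets. *Col12a1*, whose chain consists mostly of fibronectin-like and von Willebrand-like domains, had 8.12% of its codons in such stretches, against 73.3% in *Col1a1*.

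Library totals ran from 1962604 to 2567138 counts. Among the 5606 genes of mean CPM (counts scaled to one library size, TMM-normalised) of at least 30, lesional replicate 11 was the lowest of the 15 libraries for 1310 genes and the highest for 1576, and lesional replicate 14 was the lowest for 952 and the highest for 947, so both stood apart from the others. WT replicate 1 came next, as the lowest for 515 genes and the highest for 523. Its hair follicle markers summed to 1400 CPM, against 106 to 209 in the other libraries. In lesional replicate 14 *Pfn1*, which encodes the actin-binding protein profilin, was at 0.487 CPM, against 17.9 to 126 in the other 14 libraries. In lesional replicate 11 the summed level of 10 skeletal muscle genes was 3986 CPM, where the others ranged from 16750 to 38080. The 9 keratinocyte markers summed to 10690 to 18520 CPM and the 15 fibroblast markers to 2321 to 5481 CPM, and no marker of either list was at 0 in every library. The targeted gene *Otulin* was at 12.3 to 28.2 CPM in WT, 21.3 to 30.6 in non-lesional and 18.8 to 27.2 in lesional libraries, ranges that overlapped. Counts per gene do not resolve the deleted part and skin holds cells without Cre, so these values check no label.

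The collagen genes took a large part of all counts. Together they made up 1.68% to 7.11% of a library, and *Col1a1*, *Col1a2* and *Col3a1* alone held 88.1% to 93.9% of the collagen counts. *Col1a1* ranked between the 2nd and the 12th most counted gene of a library, *Col1a2* between 3rd and 13th, and *Col3a1* between 6th and 21st. Because the method reads transcript ends, these levels need no correction for length, but a gene's count also depends on how many of its reads were mapped and assigned to it. *Ppia*, a gene that nearly all cells express strongly, was at 0 to 7.76 CPM in all libraries, so an order of genes by level is an order of counts. Totals over the 15 libraries fell from 576818 counts for *Col1a1*, 547893 for *Col1a2* and 288777 for *Col3a1* to 24296 for *Col6a3*, a drop of more than an order of magnitude between the type III and type VI chains, and ended at 11 for *Col22a1*, a name chosen after its values were seen.

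**Figure D1:**
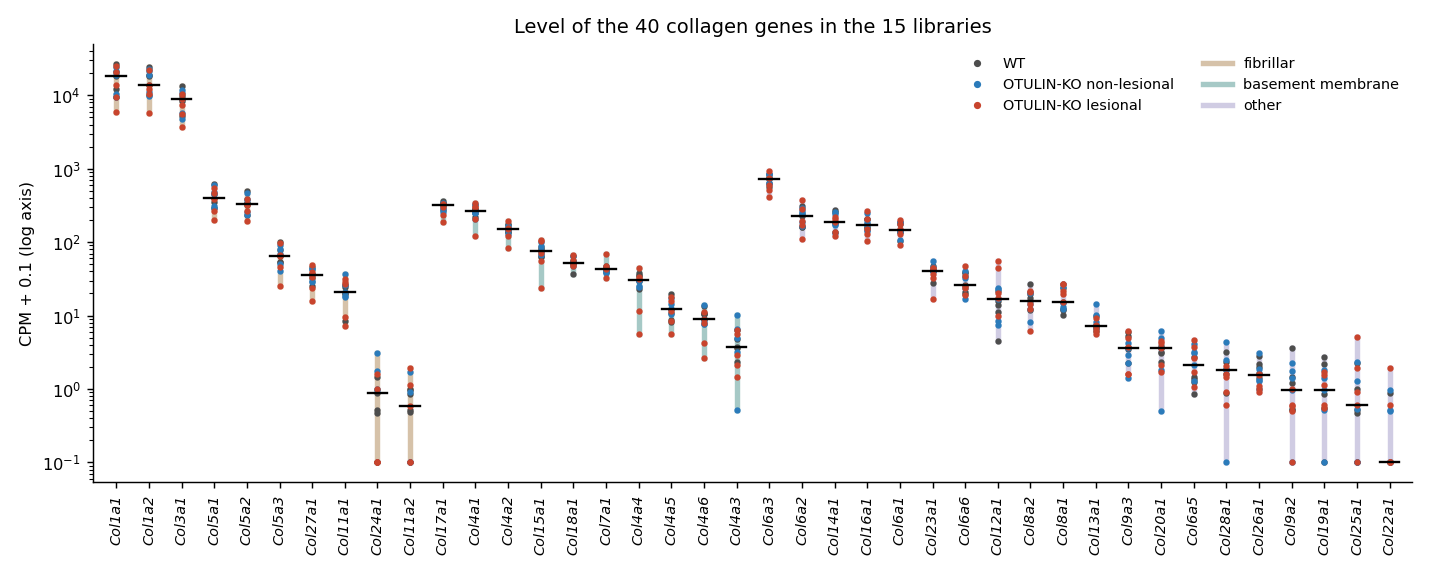
Level of each of the 40 collagen genes in every library, in TMM-normalised CPM plus 0.1 on a log axis, with points coloured by group, a black bar at the median of the 15 libraries and a shaded bar over their range. *Col1a1*, *Col1a2* and *Col3a1* lie far above all other members, and in each gene the points of the 3 groups are intermingled.

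Type I collagen is built from 2 *Col1a1* chains and 1 *Col1a2* chain and is the main fibril of dermis. *Col1a1* was at 12200, 18210, 20950, 9617 and 26750 CPM in WT replicates 1, 4, 7, 10 and 13. It was at 10570, 18960, 24120, 9374 and 21370 CPM in non-lesional replicates 3, 6, 9, 12 and 15. It was at 9376, 13990, 21030, 5917 and 24900 CPM in lesional replicates 2, 5, 8, 11 and 14. The groups overlapped over nearly their whole ranges, and each had libraries at the low and at the high end. The means were 17550 ± 6861, 16880 ± 6578 and 15040 ± 7897 CPM (SD, n = 5) in WT, non-lesional and lesional skin.

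*Col1a2* was at 13930, 18320, 18940, 10240 and 24000 CPM in the same WT replicates. It was at 10930, 19140, 22960, 9697 and 21600 CPM in the non-lesional and at 10460, 13750, 21780, 5704 and 12070 CPM in the lesional replicates. WT replicate 13 was the highest and lesional replicate 11 the lowest of all libraries, as for *Col1a1*. *Col3a1*, the chain of type III collagen that co-assembles with type I in skin and vessels, was at 8356, 9660, 8890, 5186 and 13330 CPM in WT. It was at 5817, 8859, 10660, 4802 and 11770 CPM in non-lesional and at 5648, 7367, 10490, 3689 and 8911 CPM in lesional libraries. The same 2 libraries marked its extremes.

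*Col5a1* and *Col5a2*, whose type V trimers set the diameter of type I fibrils, were next among fibrillar members. *Col5a1* was at 423 ± 126, 428 ± 128 and 374 ± 142 CPM (SD, n = 5) in WT, non-lesional and lesional libraries. *Col5a2* was at 344 ± 92.3, 345 ± 95.9 and 299 ± 75.4 CPM. Both lay far below the type I chains in every library. *Col11a1*, a minor fibrillar chain best known from cartilage, was at 19.7 ± 6.83, 23.9 ± 7.71 and 20.7 ± 11.5 CPM. The other fibrillar members were *Col5a3*, *Col27a1*, *Col24a1* and *Col11a2*, and the last pair had 27 and 21 counts in all.

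Among basement membrane members the keratinocyte chain *Col17a1* was the most counted. It encodes the transmembrane collagen of hemidesmosomes, which fasten basal keratinocytes to the basement membrane. It was at 318, 271, 365, 337 and 343 CPM in WT replicates 1, 4, 7, 10 and 13, and at 255, 281, 332, 339 and 304 CPM in non-lesional replicates 3, 6, 9, 12 and 15. In lesional replicates 2, 5, 8, 11 and 14 it was at 237, 326, 335, 186 and 299 CPM. Lesional replicates 11 and 2 lay below every WT library and the other 3 lay inside the WT range. *Col7a1*, the chain of the anchoring fibrils that tie the basement membrane to the dermis, was at 43.6 ± 3.54, 41.5 ± 3.10 and 47.1 ± 13.4 CPM (SD, n = 5), with 68.6 CPM in lesional replicate 14 and 32.01 to 47.6 in the other lesional libraries.

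*Col4a1* and *Col4a2* encode the chains of the type IV network found in most basement membranes. *Col4a1* was at 287, 317, 253, 223 and 280 CPM in WT and at 249, 332, 263, 204 and 248 CPM in non-lesional libraries. It was at 205, 303, 298, 122 and 345 CPM in lesional libraries, so that the lesional group held both the lowest and the highest of the 15 values. *Col4a2* was at 155 ± 18.1, 150 ± 14.01 and 140 ± 40.9 CPM (SD, n = 5), also with the lowest value in lesional replicate 11 and the highest in lesional replicate 14. *Col4a6*, one of the minor type IV chains of epithelial basement membranes, was at 8.92, 10.5, 13.4, 10.6 and 10.5 CPM in WT and at 8.43, 8.95, 13.95, 7.59 and 7.47 CPM in non-lesional libraries. It was at 4.08, 11.2, 8.83, 2.52 and 7.79 CPM in lesional libraries, of which 4 lay below every WT library. *Col15a1* and *Col18a1*, which carry heparan or chondroitin sulphate chains and sit at basement membranes, were at 74.1 ± 10.1 and 52.0 ± 10.3 CPM in WT.

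The 2 type IV genes lie head to head on chromosome 8, and their annotated starts overlap by 22 bases, with *Col4a1* on the minus strand ending at 11312826 and *Col4a2* on the plus strand beginning at 11312805. *Col4a4* and *Col4a3* on chromosome 1 are separated by 71 bases and *Col4a6* and *Col4a5* on the X chromosome by 1308, also head to head. The RefSeq start windows of the first pair are given as the arrangement that one short region serves, beside those of *Col1a2* and *Col3a1* as fibrillar genes with starts of their own. Each holds 300 bases, from 250 before to 50 after the start in GRCm38.p6, 5′ to 3′ on the strand of its gene. Capitals mark the CCAAT box, the TATAA box and the GC box GGGCGG on either strand.
Col4a1 (chr8:11312777-11313076, minus strand): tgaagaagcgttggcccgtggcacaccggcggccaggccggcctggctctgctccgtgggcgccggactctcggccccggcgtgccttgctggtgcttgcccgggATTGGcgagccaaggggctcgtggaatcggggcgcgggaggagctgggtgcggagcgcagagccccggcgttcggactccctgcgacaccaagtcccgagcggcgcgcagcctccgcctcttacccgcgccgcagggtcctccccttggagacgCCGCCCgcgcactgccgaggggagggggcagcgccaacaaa
Col4a2 (chr8:11312555-11312854, plus strand): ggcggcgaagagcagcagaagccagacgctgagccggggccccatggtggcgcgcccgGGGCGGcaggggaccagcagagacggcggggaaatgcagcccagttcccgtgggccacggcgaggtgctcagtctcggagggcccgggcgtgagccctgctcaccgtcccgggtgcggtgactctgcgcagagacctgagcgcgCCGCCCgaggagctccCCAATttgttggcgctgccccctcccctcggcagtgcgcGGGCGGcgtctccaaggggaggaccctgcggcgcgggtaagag
Col1a2 (chr6:4505368-4505667, plus strand): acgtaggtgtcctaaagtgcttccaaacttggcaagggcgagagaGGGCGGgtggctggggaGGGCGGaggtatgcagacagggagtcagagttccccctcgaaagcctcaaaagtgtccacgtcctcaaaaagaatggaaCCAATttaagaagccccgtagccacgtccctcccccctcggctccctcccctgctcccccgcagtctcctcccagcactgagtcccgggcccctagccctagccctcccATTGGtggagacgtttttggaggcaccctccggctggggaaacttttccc
Col3a1 (chr1:45311288-45311587, plus strand): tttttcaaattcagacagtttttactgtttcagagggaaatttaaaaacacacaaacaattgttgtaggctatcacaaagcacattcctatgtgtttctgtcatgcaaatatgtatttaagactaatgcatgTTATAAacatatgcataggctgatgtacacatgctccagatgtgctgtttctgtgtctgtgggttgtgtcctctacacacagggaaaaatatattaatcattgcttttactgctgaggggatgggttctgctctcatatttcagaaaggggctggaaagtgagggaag
The table of start windows matched 32 of the 40 members by symbol, with 34 windows. On either strand, GGGCGG occurred in 22 of these 34 and in 35.7% of all 32851 windows, CCAAT in 11 and in 37.4%, and TATAA in 5 and in 24.9%. TATAA and its reverse complement can overlap, as in *Col3a1*. Such matches describe letters and no binding was measured.

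Of the other collagens, type VI was the most counted. Its 3 main chains form beaded filaments around cells. *Col6a3* was at 636, 764, 717, 560 and 836 CPM in WT and at 634, 758, 847, 624 and 843 CPM in non-lesional libraries. It was at 737, 602, 936, 510 and 413 CPM in lesional replicates 2, 5, 8, 11 and 14, with the last the lowest of all 15. *Col6a1* was at 149 ± 33.3, 152 ± 33.2 and 149 ± 42.5 CPM (SD, n = 5) and *Col6a2* at 220 ± 62.1, 231 ± 53.0 and 226 ± 103 CPM, group means that lay well within 1 SD of each other. *Col14a1*, which binds the surface of type I fibrils, was at 207 ± 57.0, 195 ± 50.8 and 176 ± 44.6 CPM. Among the transmembrane collagens, *Col23a1* was at 39.3 ± 6.88, 44.8 ± 6.502 and 34.9 ± 11.6 CPM and *Col13a1* at 7.41 ± 1.47, 9.25 ± 3.17 and 6.92 ± 1.46 CPM. *Col8a2*, a chain of the short type VIII network of vessel walls and the cornea, was at 18.2 ± 5.53, 15.05 ± 5.25 and 14.99 ± 6.38 CPM.

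The fibrillar genes *Col1a1*, *Col1a2* and *Col3a1* varied widely within each group. As the SD of log2 CPM over the 5 WT libraries, *Col1a1* had 0.60, *Col1a2* 0.47 and *Col3a1* 0.49, where the median of the 1698 genes of mean CPM at least 100 was 0.19. These spreads exceeded those of 97.3%, 94.0% and 94.99% of such genes. Basement membrane chains had lower values, with 0.19 for *Col4a1*, 0.17 for *Col4a2* and 0.16 for *Col17a1*. In non-lesional libraries the 3 fibrillar genes had 0.62, 0.58 and 0.56 against a median of 0.15, whereas *Col4a1*, *Col4a2* and *Col17a1* had 0.25, 0.14 and 0.17. In lesional libraries the former had 0.85, 0.70 and 0.59 and the latter 0.61, 0.45 and 0.36, against a median of 0.29. There the spread of *Col3a1* exceeded that of 83.7% of such genes and the spread of *Col4a1* that of 84.3%. The fibrillar and basement membrane genes named thus overlapped in spread in this group.

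Summed over the class, fibrillar genes took 3.64%, 4.57%, 4.93%, 2.56% and 6.80% of the counts in WT replicates 1, 4, 7, 10 and 13. They took 2.82%, 4.79%, 6.10%, 2.548% and 5.49% in non-lesional replicates 3, 6, 9, 12 and 15, and 2.61%, 3.61%, 5.39%, 1.52% and 4.45% in lesional replicates 2, 5, 8, 11 and 14. The share thus varied by more within each group than the group means differed, which were 4.5% ± 1.58, 4.35% ± 1.59 and 3.51% ± 1.52 (SD, n = 5). Within the sets of consecutive replicate numbers, however, the fibrillar share was lower in the lesional than in the non-lesional library in 5 of 5, as was the level of *Col3a1*, which is given as a description since no source pairs these libraries. Basement membrane genes took 0.0988% ± 0.0047 in WT, 0.0956% ± 0.0078 in non-lesional and 0.0876% ± 0.0236 in lesional libraries, where lesional replicates 11 and 2 had 0.0523% and 0.0743% and the other 3 at least 0.1003%. The other collagens took 0.161% ± 0.028, 0.167% ± 0.025 and 0.149% ± 0.035. In bulk skin, fewer cells of a type and less RNA per cell cannot be told apart. The fibroblast marker sum was 3189 to 5481 CPM in WT, 2995 to 4948 in non-lesional and 2321 to 4686 in lesional libraries. It was highest in WT replicate 13 and lowest in lesional replicate 11, as the fibrillar share was, and its part in that share was not tested. The sum includes matrix genes and is not a measure of cell content alone. *Dcn*, *Lum*, *Dpt* and *Fbln1* are also among the fibril-associated matrix genes below, and *Fap* is among the degradation genes.

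**Figure D2:**
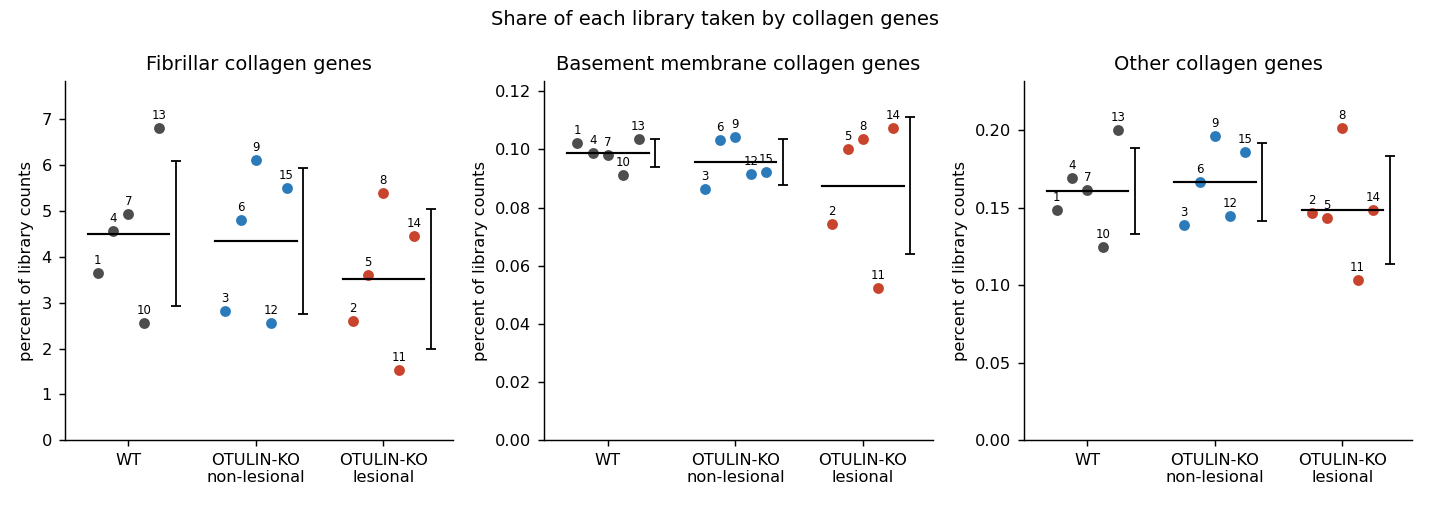
Share of each library's counts taken by fibrillar, basement membrane and other collagen genes, in percent, with a numbered point per library, a line at the group mean and a bar of 1 SD (n = 5). The fibrillar share runs from 1.52% in lesional replicate 11 to 6.80% in WT replicate 13, and the basement membrane share is narrow in WT and non-lesional libraries.

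Over the 27 members with at least 300 counts, lesional replicate 11 was the lowest of the 15 libraries for 20. These were 7 of 8 fibrillar, 7 of 9 basement membrane and 6 of 10 other members. WT replicate 13 was the highest for 7 members, of which 6 were fibrillar, and lesional replicate 14 for 7 members as well.

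A ratio between the counts of collagen chains within a library does not depend on library size. *Col1a2* had 0.897 to 1.14 counts per *Col1a1* count in WT and 0.952 to 1.03 in non-lesional libraries. It had 0.964 to 1.12 in 4 lesional libraries and 0.485 in lesional replicate 14. The type I chains therefore held a narrow ratio in 14 libraries, over a range of more than 4-fold in their levels, and departed from it in one that also stood apart in many other genes. The ratio of *Col3a1* to *Col1a1* was 0.424 to 0.685 in WT, 0.442 to 0.551 in non-lesional and 0.358 to 0.623 in lesional libraries, again lowest in lesional replicate 14.

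For the type IV pair, *Col4a2* had 0.501 to 0.690 counts per *Col4a1* count over all libraries. The ratio of *Col6a2* to *Col6a1* was 1.14 to 1.89. The ratio of *Col6a3* to *Col6a2*, chosen after its values were seen, was 2.73 to 4.69 in 14 libraries and 1.10 in lesional replicate 14. The first 4 ratios were compared between groups in 12 two-sided exact permutation tests of the mean log2 ratio, and none passed a threshold of 0.05. The smallest p was 0.603 and every p adjusted over the 12 tests was 0.952, where 0.0079 was the smallest that regrouping 5 against 5 libraries can give. For *Col1a2* to *Col1a1* the lesional mean log2 ratio was 0.18 below that of WT, and 0.035 above it without lesional replicate 14.

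**Figure D3:**
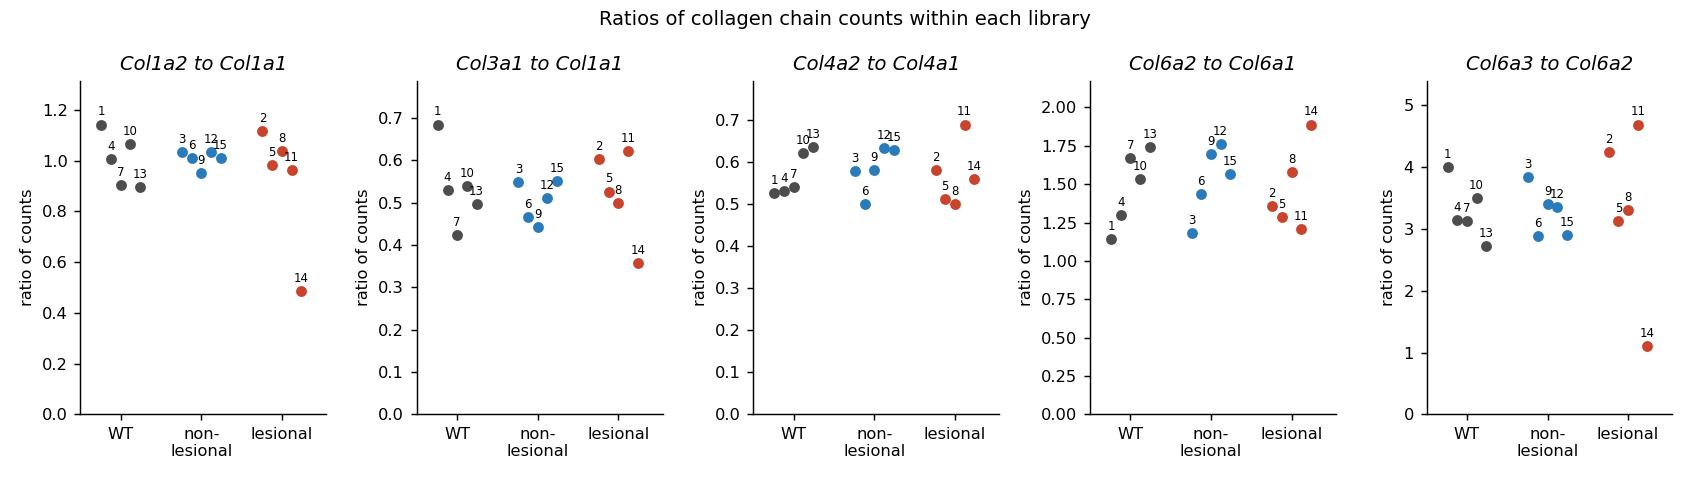
Count ratios of collagen chains in each library, with numbered points by group: *Col1a2* to *Col1a1*, *Col3a1* to *Col1a1*, *Col4a2* to *Col4a1*, *Col6a2* to *Col6a1* and *Col6a3* to *Col6a2*. Lesional replicate 14 lies apart at 0.485 in the first panel and at 1.10 in the last, while the points of the 3 groups otherwise overlap.

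Non-lesional OTULIN-KO skin was first compared with WT, which asks whether collagen expression differs where the knockout skin looks unaffected. No collagen gene tested passed an adjusted p of 0.05 in edgeR's quasi-likelihood test. Of the 40 members, 29 had enough counts to be tested, and log2 fold changes ran from -0.26 for *Col8a2* to 0.34 for *Col8a1*, with a median of 0.01. There were 16 higher and 13 lower in non-lesional libraries, where 49.4% of all genes tested were higher. At an unadjusted p under 0.05 the count was also 0, by edgeR, by DESeq2 and by limma, where 3.16% of the 13021 genes tested met it by edgeR, 1.85% higher and 1.31% lower, and 0.0% met the adjusted threshold.

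For the major chains the intervals of this comparison remained wide. *Col1a1* had a log2 fold change of -0.06 with a 95% interval of -0.72 to 0.61, *Col1a2* of -0.02 (-0.58 to 0.54) and *Col3a1* of -0.12 (-0.69 to 0.45). Changes of up to about 1.5-fold in either direction in type I collagen were thus within the intervals. With the sets of 3 consecutive replicate numbers as a block, chosen after seeing the data, the intervals were narrower, at -0.27 to 0.15 for *Col1a1*, -0.26 to 0.17 for *Col1a2* and -0.35 to 0.08 for *Col3a1*. No member had an unadjusted p under 0.05 in that fit, and 8 of the 13021 genes passed the adjusted threshold. Without the block, the basement membrane chains *Col17a1*, *Col4a1*, *Col4a2* and *Col7a1* had narrower intervals than *Col1a1*, *Col1a2* and *Col3a1*. *Col17a1* had -0.11 (-0.34 to 0.12), *Col4a1* -0.07 (-0.33 to 0.19), *Col4a2* -0.05 (-0.27 to 0.18) and *Col7a1* -0.07 (-0.33 to 0.19). This did not hold for every basement membrane member. Their median SE was 0.14, against 0.25 for fibrillar members, but their largest was 0.48, for *Col4a3*, against 0.31. Values for the members of smallest p were 0.34 ± 0.27 (SE) for *Col8a1*, 0.33 ± 0.27 for *Col13a1*, 0.19 ± 0.15 for *Col23a1*, -0.19 ± 0.16 for *Col4a4*, 0.14 ± 0.13 for *Col15a1* and 0.27 ± 0.26 for *Col11a1*. All had an adjusted p of 0.9998. Without WT replicate 7, *Col8a1* was at 0.58 with an unadjusted p of 0.038. Which members lay above 0 depended on single libraries, since 34.5% of those tested did so without non-lesional replicate 15, against 55.2% with all libraries.

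Lesional skin was then compared with WT. Again no collagen gene passed the adjusted threshold, which 0.0% of the 12918 genes tested passed. *Col12a1* and *Col8a1* were the members of smallest p and both were higher in lesional libraries, at unadjusted p of 0.037 and 0.033 and an adjusted p of 0.926. They were 2 of 28 members tested, where 3.24% of all genes were higher at an unadjusted p under 0.05, and no member was lower, where 1.56% of genes were, 4.81% in either direction. Over the members tested, 9 were higher and 19 lower, the median log2 fold change was -0.14, and 7 of 8 fibrillar members were lower. Among all genes tested 49.5% were higher and the median was -0.003. The count of members higher was not stable, and 13.8% of those tested were higher without WT replicate 10, 17.2% without lesional replicate 5 or 8, and 17.9% without lesional replicate 14, against 32.1% with all libraries. It was also 17.9% with the sets as a block. The share moved the other way without lesional replicate 11, to 40% with a median log2 fold change of -0.014. Without lesional replicate 2 it was 36.7% with a median of -0.063, and by limma 35.7% with a median of -0.028. The lower median thus rested largely on lesional replicates 11 and 2. Markers of other cell types are given beside this, none of them past the adjusted threshold. Of the fibroblast markers 10 of 15 were lower, with a median log2 fold change of -0.15, as were 6 of 7 smooth muscle (-0.17), 7 of 9 endothelial (-0.18), 8 of 8 Schwann cell (-0.35) and 5 of 8 adipocyte markers (-0.14). Higher were 6 of 9 macrophage (0.17), 5 of 9 keratinocyte (0.16) and 2 of 2 inflamed epidermis markers tested (3.88). Among them the macrophage gene *Aif1* had 1.19 at an unadjusted p of 0.0011, with each of the 5 lesional levels above the WT range, and the basal keratin *Krt14* had 1.36 at 0.036 and 0.66 without lesional replicate 11. Their part in the values of the members was not tested.

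*Col12a1* encodes a collagen that decorates type I fibrils and has been associated with tissues under tension and repair. It was at 21.3, 4.38, 15.7, 13.96 and 11.2 CPM in WT replicates 1, 4, 7, 10 and 13, and at 16.9, 7.25, 22.6, 23.6 and 8.35 CPM in non-lesional replicates 3, 6, 9, 12 and 15. In lesional replicates 2, 5, 8, 11 and 14 it was at 43.9, 17.3, 20.5, 56.0 and 9.73 CPM, that is 97, 34, 51, 111 and 20 counts. Lesional replicates 2 and 11 lay above all WT and non-lesional libraries and the other 3 lay inside the WT range. The log2 fold change to WT was 1.14 ± 0.48 (SE, 95% interval 0.08 to 2.19). Without lesional replicate 11 it was 0.78 with an unadjusted p of 0.108, without lesional replicate 2 it was 0.94 with 0.089, and without lesional replicates 11 and 14 together it was 1.03 with 0.029. Leaving out WT replicate 4, 7, 10 or 13 also gave an unadjusted p above 0.05, from 0.051 to 0.073. With the sets as a block *Col12a1* had 1.03 at an unadjusted p of 0.011 and an adjusted p of 0.892 by edgeR. It was higher in the lesional library of 4 of 5 sets.

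The 2 libraries in which *Col12a1* was high were also those with high levels of genes of inflamed epidermis. The summed level of *Krt6a*, *Krt6b*, *Krt16*, *S100a8*, *S100a9*, *Sprr2d* and *Sprr1b* was 13050 CPM in lesional replicate 2 and 33930 CPM in lesional replicate 11. It was 278 to 1312 CPM in WT, 318 to 1206 in non-lesional and 245 to 432 in the other 3 lesional libraries, and none of the 7 genes was at 0 in every library. The upper ends were single libraries, WT replicate 1 and non-lesional replicate 3. The others of their groups reached 487 and 400 CPM. *Tnc*, the gene of the matrix glycoprotein tenascin-C, was at 76.6 and 71.6 CPM in these 2 libraries and at 9.35 to 28.7 CPM in the other 13. The part of either in the *Col12a1* value was not tested.

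*Col8a1*, the other chain of the short type VIII network, was at 12.02, 10.1, 23.7, 11.8 and 14.97 CPM in WT and at 27.1, 12.4, 13.1, 24.4 and 14.95 CPM in non-lesional libraries. In lesional libraries it was at 27.2, 15.2, 26.9, 21.2 and 19.5 CPM. All lesional libraries lay above 4 of the 5 WT libraries, and 3 of them below WT replicate 7. The log2 fold change to WT was 0.60 ± 0.26 (SE, 95% interval 0.06 to 1.151), and 0.68 without lesional replicates 11 and 14. The unadjusted p rose above 0.05 without WT replicate 1, 4, 10 or 13 or lesional replicate 2 or 8, with 0.083 the highest. Leaving out single libraries gave log2 fold changes from 0.50 to 0.84. With the sets as a block *Col8a1* had 0.62 at an unadjusted p of 0.016 and an adjusted p of 0.892 by edgeR. It was higher in the lesional library of 5 of 5 sets.

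**Figure D4:**
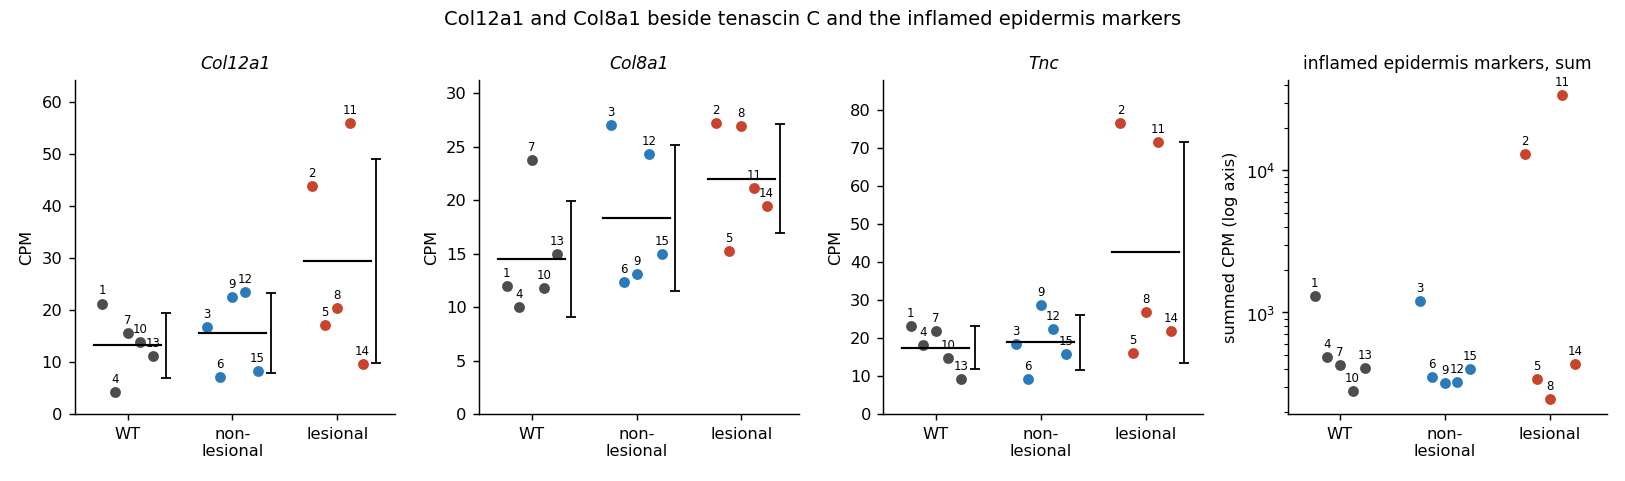
Levels of *Col12a1*, *Col8a1* and *Tnc* in each library (CPM, with group mean and 1 SD, n = 5) and the summed level of 7 inflamed epidermis genes (CPM, log axis), with numbered points. Lesional replicates 2 and 11 are highest for *Col12a1*, at 43.9 and 56.0 CPM, for *Tnc* and for the epidermal sum, whereas the lesional values of *Col8a1* lie within the span of the other groups but for one.

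The remaining members of this comparison did not pass an unadjusted p of 0.05. *Col4a6* had a log2 fold change of -0.64 ± 0.33 (SE, 95% interval -1.35 to 0.07, unadjusted p = 0.075, adjusted p = 0.926 by edgeR), which was -0.87 at an unadjusted p of 0.024 without lesional replicate 5 and -0.43 at 0.157 without lesional replicate 11. *Col1a1* had -0.23 (95% interval -1.05 to 0.60), *Col1a2* -0.42 (-1.13 to 0.28) and *Col3a1* -0.33 (-0.98 to 0.31). Single libraries moved these values far. *Col1a1* was at -0.017 without lesional replicate 11, -0.023 without WT replicate 13 and -0.48 without lesional replicate 14. *Col3a1* was at -0.16 without lesional replicate 11 or WT replicate 13. *Col1a2* was at -0.23 without lesional replicate 11 and at -0.70, with an unadjusted p of 0.046, without lesional replicate 8. Over all members tested, leaving out a single library moved the log2 fold change by more than 1.5 times or turned its sign in at least 1 such fit for 29 of 29 in the first, 25 of 28 in this and 29 of 29 in the last comparison. Without lesional replicates 11 and 14 the value of *Col1a2* was -0.16. With the sets as a block *Col4a6* had -0.72 at an unadjusted p of 0.048 and an adjusted p of 0.892, and -0.49 at an unadjusted p of 0.178 when lesional replicates 11 and 14 were left out as well. *Col5a1* had -0.18 ± 0.27, *Col5a2* -0.20 ± 0.21 and *Col14a1* -0.24 ± 0.21. The type VI chains *Col6a1*, *Col6a2* and *Col6a3* had 0.00 ± 0.21, 0.04 ± 0.30 and -0.14 ± 0.21. At the basement membrane, *Col17a1* had -0.24 ± 0.17, *Col4a1* -0.10 ± 0.23, *Col4a2* -0.14 ± 0.19 and *Col7a1* 0.11 ± 0.19.

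Lesional skin was last compared with non-lesional skin of the same genotype, in a fit that shares its lesional libraries with the previous one. No collagen gene passed the adjusted threshold, which 0.0% of 12864 genes passed, and none of the 29 members tested had an unadjusted p under 0.05 by edgeR, DESeq2 or limma, where 4.22% of genes did by edgeR, 2.89% higher and 1.33% lower. Of the members tested 5 were higher and 24 lower, including 8 of 8 fibrillar members, with a median log2 fold change of -0.15, against 50.6% of all genes higher. Markers of several cell types lay lower beside them, namely 12 of 15 fibroblast (median -0.18), 6 of 7 smooth muscle (-0.20), 7 of 8 endothelial (-0.22), 8 of 8 Schwann cell (-0.55), 8 of 8 adipocyte (-0.34) and 9 of 10 skeletal muscle markers (-0.08). Higher were 6 of 9 keratinocyte (0.15), 8 of 9 macrophage (0.087) and 5 of 5 inflamed epidermis markers (4.78). Their part in the lower collagen values was not tested. The count of members higher also depended on single libraries. Without lesional replicate 11 the median was 0.02 and 55.2% of members tested were higher, against 17.2% with all libraries, and without lesional replicate 2 it was 37.9%. Leaving out non-lesional replicate 6 or 9 gave 27.6%, and non-lesional replicate 12 gave 10.3%, as did the block by sets.

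*Col12a1* had the largest value in this comparison, with a log2 fold change of 0.89 ± 0.48 (SE, unadjusted p = 0.091, adjusted p = 0.973 by edgeR) and 0.54 without lesional replicate 11. Without lesional replicate 14 it was 1.11 at an unadjusted p of 0.029. With the sets as a block *Col12a1* had 0.82 at an unadjusted p of 0.011 and was higher in the lesional library of 4 of 5 sets, and *Col1a2* had -0.445 (95% interval -0.82 to -0.07) at 0.026 and was lower in 5 of 5, both with an adjusted p of 0.834. The value of *Col1a2* depended on the libraries that stood apart. One of the 5 sets holds lesional replicate 14, in which *Col1a2* was at 12070 CPM and *Col1a1* at 24900, against 21600 and 21370 in non-lesional replicate 15. With the block and without lesional replicates 11 and 14, *Col1a2* had -0.20 at an unadjusted p of 0.159 and *Col12a1* 0.78 at 0.021, and without the block *Col1a2* had -0.21 without lesional replicate 11 and -0.13 without both. *Col1a1* had -0.17 (95% interval -0.997 to 0.66), *Col1a2* -0.40 (-1.13 to 0.32) and *Col3a1* -0.21 (-0.86 to 0.44). *Col23a1* had -0.36 ± 0.23, *Col13a1* -0.41 ± 0.28, *Col4a6* -0.43 ± 0.36 and *Col8a1* 0.26 ± 0.26. *Col17a1* had -0.13 ± 0.17, *Col4a1* -0.03 ± 0.24 and *Col7a1* 0.18 ± 0.18. In none of the 3 comparisons was there a member whose groups did not overlap, where 0.384%, 0.449% and 0.264% of all genes tested were entirely higher and 0.276%, 0.271% and 0.295% entirely lower.

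**Figure D5:**
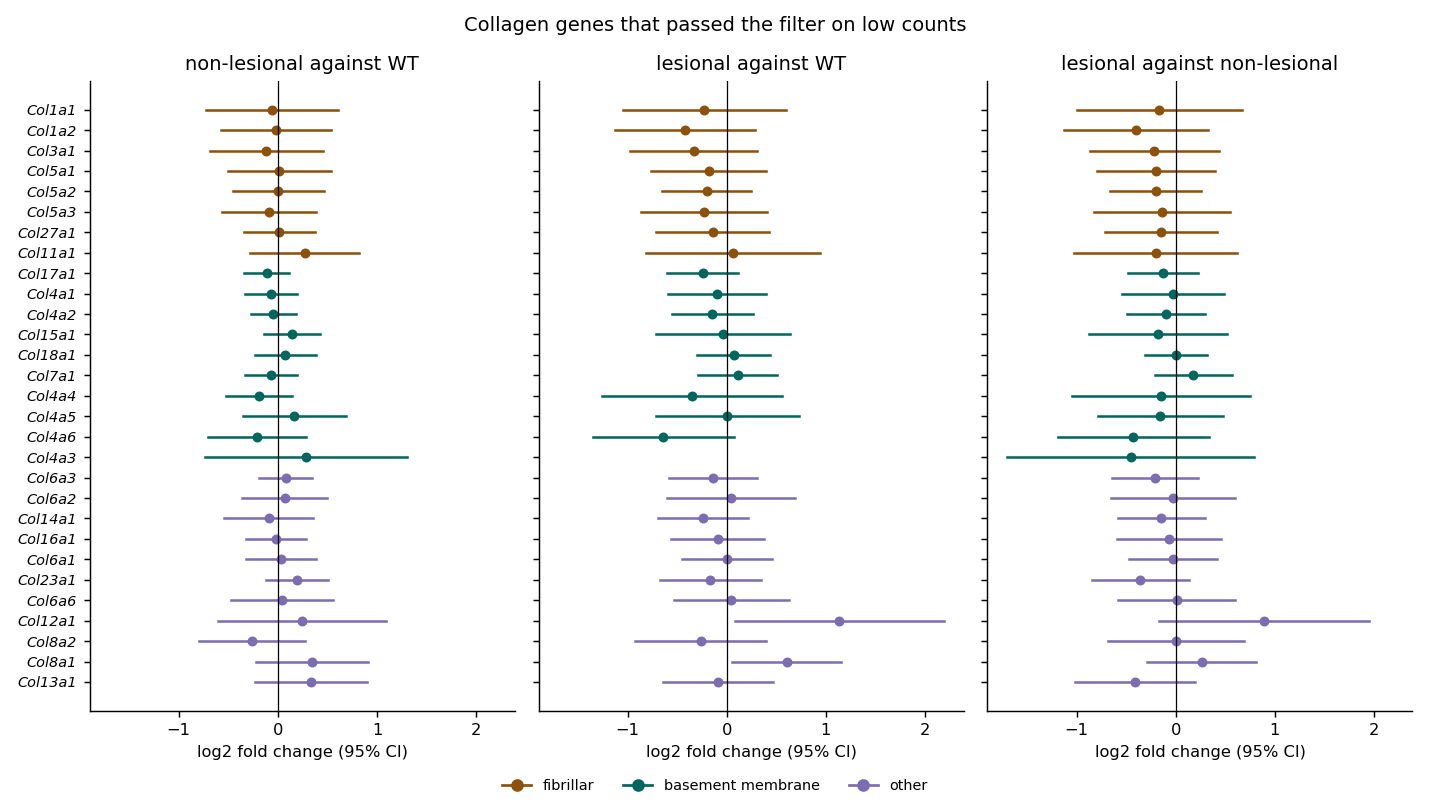
Log2 fold changes of the collagen genes tested, with 95% intervals from edgeR's quasi-likelihood fit, for non-lesional against WT, lesional against WT and lesional against non-lesional libraries, coloured by class. Nearly all intervals include 0, with *Col12a1* and *Col8a1* in the second comparison the exceptions, and most points of both comparisons of lesional libraries lie to the left of 0.

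The genes that make, process, bind and degrade collagen were read from the same fits. None of the 7 lists had a gene past the adjusted threshold in any comparison. Of 25 genes of collagen synthesis and secretion, 22 were tested, of which 15, 8 and 7 were higher in non-lesional against WT, lesional against WT and lesional against non-lesional libraries. *P4ha1*, a catalytic subunit of prolyl 4-hydroxylase, had log2 fold changes of 0.28 ± 0.19 (SE) in the first (0.172 without WT replicate 1 and 0.182 without WT replicate 10) and -0.44 in the last comparison, with an unadjusted p of 0.030 in the last. *P4hb*, the other subunit of that enzyme, had 0.12 and 0.35 in the first and second. It was at 301.7 and 324 CPM in lesional replicates 2 and 11 and at 158.5 to 189 in the other lesional libraries, and without lesional replicate 11 the second value was 0.199. Without WT replicate 10 the first was 0.074. *Ppib*, a prolyl isomerase of procollagen folding, had 0.23 in the second (0.136 without lesional replicate 11), and *Sec24d*, a coat protein of the vesicles that export procollagen, -0.30 in the third.

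Outside the cell, of 14 genes of procollagen processing and cross-linking, 12, 11 and 12 were tested in the 3 comparisons and 8, 10 and 11 were lower. *Bmp1*, the protease that removes the C-propeptide, had -0.15 and -0.27 in the comparisons with WT, of which the first was -0.034 without non-lesional replicate 3 and the second -0.164 without lesional replicate 11. *Adamts14*, which removes the N-propeptide, had -0.43 between lesional and WT libraries and -0.27 without lesional replicate 11. The lysyl oxidases *Loxl4* and *Loxl3* had 0.59 in the first and -0.40 in the third comparison, and *Pcolce2*, an enhancer of the C-proteinase, -0.31 in the third. *Loxl4* was at 0.30 without non-lesional replicate 9 and 0.36 without WT replicate 10, and *Pcolce2* ran from -0.57 without lesional replicate 14 to -0.119 without lesional replicate 11. None of these had an unadjusted p under 0.05.

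Fibril-associated matrix genes were divided, with 10, 11 and 12 of 24 tested higher. *Tnc* had a log2 fold change of 1.28 ± 0.45 (SE) between lesional and WT libraries at an unadjusted p of 0.014 and 1.16 between lesional and non-lesional libraries at 0.028. Its level was 76.6 and 71.6 CPM in lesional replicates 2 and 11 and 16.3 to 26.9 in the other lesional libraries, inside the non-lesional range of 9.38 to 28.7. Without lesional replicate 2 or 11 the latter value was 0.84 or 0.90, at 0.081 or 0.086. *Thbs1*, which encodes thrombospondin-1, had -1.07 in the first and 1.33 in the third comparison, the latter at an unadjusted p of 0.047. It was at 86.1 CPM in WT replicate 1 and at 9.73 to 25.8 in the other WT libraries, and without WT replicate 1 the first value was -0.29. It was lower in the non-lesional library of every set of consecutive numbers, and with the sets as a block the value was -0.88 at an unadjusted p of 0.00025 and an adjusted p of 0.194. In lesional replicates 2 and 11 it was at 59.3 and 91.8 CPM and in the other lesional libraries at 13.2 to 16.1, inside the non-lesional range of 8.78 to 27.1. Without lesional replicate 11 the third value was 0.75 at an unadjusted p of 0.180, and without lesional replicate 2 it was 1.13 at 0.104. *Fbln1*, the gene of fibulin-1, had 0.29 and 0.37 in the comparisons with WT, of which the first was 0.17 without non-lesional replicate 6 and the second 0.22 without lesional replicate 14. Of 15 degradation genes 11 were tested, and 4, 4 and 5 were higher. The other 4, *Mmp8*, *Mmp10*, *Mmp12* and *Mmp13*, had too few counts in most libraries, and are named after their values were seen. *Mmp13*, a collagenase, was at 13.6 and 138.2 CPM in lesional replicates 2 and 11 and at 0 to 0.875 in the other 13 libraries. *Mmp12*, a macrophage elastase, was at 21.3 and 56.5 CPM in the same libraries and at 0 to 2.01 in the others. *Mmp10* was at 8.57 and *Mmp8* at 2.52 CPM in lesional replicate 11, and at 0 and 0 to 1.33 in all other libraries. High values of *Mmp12* and *Mmp13* were thus found in lesional replicates 2 and 11 and not in the other 3 lesional libraries. *Mmp9*, a gelatinase also made by leukocytes, had 1.88 ± 0.82 between lesional and WT libraries at an unadjusted p of 0.044 and 1.77 in the third comparison. Both rested on lesional replicate 11, at 92.3 CPM, where the other lesional libraries were at 4.38 to 19.9, WT at 3.50 to 10.5 and non-lesional libraries at 3.11 to 11.2. Without it *Mmp9* had 0.46 at an unadjusted p of 0.304 and 0.36 at 0.448. The inhibitors *Timp2* and *Timp3* had -0.25 and -0.13 in the first comparison (-0.15 and -0.028 without WT replicate 1) and *Timp1* 0.72 in the second. Other omissions moved the first values away from 0. *Timp2* had -0.36 without WT replicate 10, at an unadjusted p of 0.012 by edgeR, and *Timp3* -0.20 without WT replicate 4. *Mrc2*, a receptor that takes up cleaved collagen, had -0.47 in the third.

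Of 7 collagen receptor genes tested, 3, 3 and 6 were higher. *Itga11*, the integrin subunit by which fibroblasts bind type I collagen, had 0.37 and 0.60 in the comparisons with WT, the first 0.22 without non-lesional replicate 15. *Adgrg1*, an adhesion receptor for type III collagen, had 0.66 and 0.57 in those of lesional libraries (0.36 and 0.28 without lesional replicate 11). The discoidin receptors *Ddr1* and *Ddr2* had -0.22 in the first (-0.071 without WT replicate 1) and 0.11 in the third (0.051 without non-lesional replicate 3). *Ddr1* had -0.32 without WT replicate 4, at an unadjusted p of 0.027 by edgeR, and *Ddr2* 0.197 without non-lesional replicate 9. Among 22 basement membrane partners, 14, 17 and 14 were lower. *Pxdn*, the peroxidase that forms sulfilimine cross-links in type IV collagen, had -0.43 in the first comparison at an unadjusted p of 0.019 and -0.33 in the second (-0.202 without lesional replicate 11). *Lama5*, a laminin chain, had -0.51 in the third at an unadjusted p of 0.046. *Dst*, the hemidesmosome plakin, had -0.21 in the first.

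TGF-beta is a main inducer of collagen transcription in fibroblasts. Of its 21 listed signalling genes, 19, 18 and 19 were tested and 12, 12 and 13 were lower. *Smad6*, an inhibitory mediator, had 0.37 and -0.61 in the first and the third comparison, *Tgfb3* 0.25 in the first and *Smad4* -0.29 in the second. In the first comparison *Smad6* ran from 0.187 without WT replicate 7 to 0.68 without WT replicate 13, and *Tgfb3* was at 0.082 without WT replicate 1. *Tgfbr3*, the co-receptor betaglycan, had -0.33 in the second (-0.172 without WT replicate 13) and -0.30 in the third, the latter at an unadjusted p of 0.045. The unadjusted p of *P4ha1*, *Lama5* and *Tgfbr3* in the third comparison and of *Pxdn* in the first also rose above 0.05 when single libraries were left out. The comparisons share libraries, so their values for one gene are not independent.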

How the data were processed

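RNA of 15 skin samples was made into QuantSeq 3′ FWD libraries. The authors clipped adaptors with cutadapt 2.10, aligned reads to GRCm38 and spike-in sequences with subread-align, kept matches of high mapping quality with samtools, and deposited whole-number counts of reads overlapping the exons of each gene by at least 20 bases, from featureCounts 2.0.1. A read over several genes was counted for each. No strand setting, annotation release or removal of PCR copies is given in the sources used here, so reads of overlapping genes such as *Col4a1* and *Col4a2* at their starts cannot be told apart and counts are not independent molecules. The 92 spike-in rows summed to 0. Deposited CPM were not used, and RNA integrity per library was not given. The methods exclude samples below a limit of RNA integrity but describe those included as below it, so the integrity behind these counts is unclear.

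Each comparison took its 2 groups into one model in edgeR 4.0.16 (R 4.3.3), with TMM factors, filterByExpr at a minimum count of 10, robust dispersion estimates for the quasi-likelihood test, and p-values adjusted over all genes tested by the method of Benjamini and Hochberg. SE is the absolute log2 fold change over the square root of F. CPM use TMM factors over all 15 libraries. Alternatives were DESeq2 1.42.0, voomWithQualityWeights of limma 3.58.1, other scalings and filters, 1 fit over 15 libraries, leaving out each replicate and, chosen after seeing the data, leaving out lesional replicates 11 and 14 and a block by sets of consecutive replicate numbers, alone and together. Fits were tested on simulated counts.

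Named were 12 major skin collagens, the 8 members of smallest p per comparison and the 2 genes of smallest p per list and comparison, of which 1 gene is not reported here. The members and lists were chosen with earlier results of these data known. Repeats were read from GENCODE vM21 transcripts.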

Additional observations from a re-analysis of the deposited data

Results flagged for a closer look

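In 90 groups of 5 values (22 members, 4 chain ratios, 3 class shares and the library totals, in 3 groups each), 2 held a sample far from the other 4 by Dixon's test, which chance gives in about 1 of 20 groups. The ratio of *Col1a2* to *Col1a1* counts was 0.485 in lesional replicate 14 and 0.964 to 1.12 in the other lesional libraries. *Col4a6* was at 13.95 CPM in non-lesional replicate 9 and at 7.47 to 8.95 CPM in the other non-lesional libraries.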

How the results depend on the processing

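No collagen gene passed the adjusted threshold in any of the 3 comparisons under any alternative run. All named log2 fold changes retained their sign under DESeq2, its size factors and 1 fit over 15 libraries. *Col6a1* between lesional and WT libraries was -0.0125 with upper quartile scaling, -0.000144 with no filter and -0.00286 with at least 10 counts in every sample. With voom, *Col6a3* was 0.016 and *Col7a1* -0.0099 against WT, and *Col6a1* 0.065 and *Col4a1* 0.052 against non-lesional libraries. Without lesional replicates 11 and 14, an alternative chosen after seeing the data, *Col6a2* was -0.0175, *Col6a3* 0.112 and *Col7a1* -0.0697 against WT, and *Col6a1* 0.01199, *Col6a3* 0.0386 and *Col4a1* 0.0577 against non-lesional libraries. The values of *Col6a3* had been -0.14 against WT and -0.21 against non-lesional libraries, and that of *Col7a1* 0.11 against WT, so not all changes of sign were between values near 0. The cause was not tested.

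Leaving out 1 replicate at a time reversed 60 of 520 values of named members and 22 of 120 log2 ratios. Between non-lesional and WT libraries the lowest and highest values were -0.22 and 0.15 for *Col1a1*, -0.16 and 0.14 for *Col1a2*, -0.27 and 0.0643 for *Col3a1*, -0.13 and 0.20 for *Col5a1*, -0.13 and 0.17 for *Col5a2*, -0.0751 and 0.14 for *Col6a1*, -0.0257 and 0.22 for *Col6a2*, -0.17 and 0.00592 for *Col4a1*, and -0.08695 and 0.0119 for *Col4a2*. Between lesional and WT libraries they were -0.12 and 0.14 for *Col6a1*, -0.21 and 0.22 for *Col6a2*, -0.23 and 0.08 for *Col4a1*, and -0.0618 and 0.22 for *Col7a1*. Between lesional and non-lesional libraries they were -0.42 and 0.038 for *Col1a1*, -0.15 and 0.11 for *Col6a1*, -0.28 and 0.15 for *Col6a2*, -0.16 and 0.15 for *Col4a1*, and -0.24 and 0.04325 for *Col4a2*. For log2 ratios, in the order of those comparisons, *Col1a2* to *Col1a1* gave -0.025 to 0.062, -0.265 to 0.035 and -0.279 to 0.022, and *Col3a1* to *Col1a1* gave -0.154 to 0.019, -0.126 to 0.083 and -0.043 to 0.158. *Col4a2* to *Col4a1* gave -0.082 to 0.0335 between lesional and WT libraries, and *Col6a2* to *Col6a1* gave -0.035 to 0.143 and -0.112 to 0.050 in the comparisons with WT. The percentage of members tested that were higher ranged from 34.5 to 79.3, 13.8 to 40 and 10.3 to 55.2.

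No source pairs the libraries, and the groups share no replicate numbers. A paired analysis was run with sets of consecutive numbers as a replicate block, chosen after seeing the data. Over 5606 genes, deviations from the group means correlated within sets at 0.22 to 0.64 between lesional and non-lesional libraries, where 9 of 10 libraries correlated best with their own set. They did so at 0.10 to 0.43 between non-lesional and WT libraries (8 of 10) and at -0.24 to 0.31 between lesional and WT libraries (2 of 10), which is a hint from the data and not from the design. With that block no member passed the adjusted threshold, members tested were higher in 55.2%, 17.86% and 10.3%, and *Col6a1* and *Col6a2* were at -0.01855 and -0.03096 between lesional and WT libraries. All genes passing it numbered 8, 0 and 0. With that block and without lesional replicates 11 and 14, *Col6a1*, *Col6a3* and *Col7a1* were at -0.01649, 0.08793 and -0.1094 against WT, and *Col6a3*, *Col7a1* and *Col17a1* at 0.01241, -0.08293 and 0.04294 against non-lesional libraries. Depth limited which members could be tested, since 11 or 12 of the 40 members had too few counts.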
